A study of Mus musculus with 8 samples.

Results

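NRF2, the transcription factor encoded by *Nfe2l2*, and 9 genes of the antioxidant system that it controls or that works beside it were examined in adipose tissue macrophages sorted by the Fcγ receptor FCGR4. The members were chosen by symbol: *Nfe2l2*, the cystine transporter gene *Slc7a11*, *Nqo1*, *Gclc*, *Gclm*, *Txnrd1*, *Srxn1*, *Gsr*, *Prdx1*, and *Gpx4*, which are 10 of the 54146 genes counted. All 10 had enough counts to be tested. The data were bulk RNA-Seq counts from 8 libraries, 1 of FCGR4+ and 1 of FCGR4- macrophages from each of 4 mice.

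Both populations came from epididymal white adipose tissue (eWAT) of the same C57Bl6 animals. Every mouse had been fed a high-fat high-cholesterol diet without limit for 24 weeks and had then received 30% less of it for 2 weeks, so no lean or unrestricted mice are among these libraries. The study used male mice that were young adults at the start, their age at harvest is not given in the labels, and the methods describe several ways of lowering the LDL receptor without saying which these 4 mice received. CD45+ CD11b+ cells negative for CD3, B220, Ly6G, and SiglecF were sorted by surface FCGR4, so the FCGR4- gate held all CD11b+ leukocytes that those markers did not remove. Mice 1 and 2 carry one animal ID prefix in the labels and mice 3 and 4 another.

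In a resting cell the adaptor KEAP1 holds NRF2 in the cytoplasm and passes it on for degradation. Oxidants and electrophiles modify KEAP1, NRF2 then accumulates, and it binds antioxidant response elements (AREs) in its target genes together with small MAF proteins. NRF2 activity is thus set largely at the protein and not at the mRNA. The targets supply glutathione (cystine uptake by SLC7A11, synthesis by the 2 subunits of glutamate-cysteine ligase, GCLC and GCLM, and recycling by glutathione reductase, GSR), keep thioredoxin, peroxiredoxins, and their repair enzyme working (TXNRD1, PRDX1, SRXN1), and detoxify quinones (NQO1). GPX4 uses glutathione to reduce lipid peroxides in membranes and is the enzyme that holds back ferroptosis. Macrophages of obese fat take up lipid and dead adipocytes, and *Slc7a11* is a gene induced by oxidant stress and by the amino acid response factor ATF4.

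Promoter sequence is shown first for the genes in which a motif of either factor was found, since these letters are what the members share or do not share beyond their function. Windows from 250 bases before to 50 after the transcription start were taken from RefSeq on GRCm38.p6, the assembly called mm10, and 8 of the 10 members had an entry, *Gclc* and *Gsr* having none. The ARE core TGACNNNGC was searched on both strands, and 5 of the 8 members held it. Of all 32851 windows 12.4% did, and of all 27025 genes with an entry 14% did in at least 1 window. The sites are printed 5′ to 3′ on the strand of the gene, with the core or its reverse complement in capitals.
*Nfe2l2*, chr2:75704895-75704903, minus strand: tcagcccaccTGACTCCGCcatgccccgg
*Srxn1*, chr2:152105552-152105560, plus strand: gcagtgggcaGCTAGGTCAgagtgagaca
*Gclm*, chr3:122245423-122245431, plus strand: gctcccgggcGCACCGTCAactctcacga
*Prdx1*, chr4:116685466-116685474, plus strand: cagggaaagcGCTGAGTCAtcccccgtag
*Txnrd1*, chr10:82859114-82859122, plus strand: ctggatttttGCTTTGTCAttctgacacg

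The coordinates are those of the capitals. Counted from the RefSeq start, the *Nfe2l2* core begins 240 bases before it and those of *Gclm* and *Prdx1* begin 134 and 133 bases before it, whereas that of *Srxn1* begins 29 bases after it. *Txnrd1* has 3 RefSeq starts, and its core begins 92 bases before one inside the gene, with none in the windows of the other two. No ARE core was found in the windows of *Slc7a11*, *Nqo1*, and *Gpx4*, which says only that these letters are not in these windows.

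In *Slc7a11* another motif was found. The element TGATGCAA, a form bound by ATF4 with its partners, occurred in 1.03% of genes with an entry and in 0.895% of windows, and among the 8 members with an entry it occurred in *Slc7a11* alone, with 2 copies, one in each orientation. The copies begin 66 and 47 bases before the start. They are the capitals in the 250 bases that precede the *Slc7a11* start, printed on the minus strand as the gene reads.
*Slc7a11*, chr3:50443614-50443863, minus strand: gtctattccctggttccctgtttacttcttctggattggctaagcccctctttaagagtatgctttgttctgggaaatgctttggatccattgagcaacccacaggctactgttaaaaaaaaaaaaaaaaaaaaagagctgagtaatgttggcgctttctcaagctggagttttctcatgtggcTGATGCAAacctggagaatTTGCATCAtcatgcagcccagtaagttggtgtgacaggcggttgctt

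A match to a motif is a description of the letters and not a measured binding site.

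Total counts lay between 35992794 and 66856746 per library. Levels are given as normalized CPM (counts relative to library size, scaled with edgeR's TMM factors of 0.937 to 1.11), and a floor of 3 counts equals 0.0440 to 0.0883 CPM. *Fcgr4* was measured at 138.6 to 236.4 CPM in FCGR4+ libraries and 48.5 to 82.9 CPM in FCGR4- libraries, with no overlap between them. All 12 macrophage markers on a fixed list were tested and none passed the threshold in either direction, with summed levels of 30234 to 55318 CPM in FCGR4+ and 24502 to 48700 CPM in FCGR4- libraries. Within mice the macrophage sum was higher in the FCGR4+ library in 4 of 4. With an unadjusted edgeR P value under 0.05, 6 of the 12 markers were higher and none lower, against 3.1% and 6.67% of all genes. Markers of several other cell types were higher in the FCGR4- libraries. For the counts called below, 1.19% of all genes were called lower in FCGR4+ libraries (edgeR adjusted P value under 0.1). Mast cell and basophil markers summed to 391.5 to 2147 CPM there against 14.5 to 30.5 CPM in FCGR4+ libraries, where *Mcpt8* was at 0 in every library, and 9 of 9 tested markers were called. Neutrophil markers summed to 387.0 to 2413 against 118.8 to 535.2 CPM (5 of 8 called), fibroblast and preadipocyte markers to 395.9 to 1596 against 155.6 to 290.4 CPM (8 of 10 called), dendritic cell markers to 64.7 to 131.2 against 19.4 to 30.6 CPM (5 of 10 called), T and NK cell markers to 19.2 to 71.9 against 4.23 to 13.8 CPM (7 of 10 called), and B cell markers to 407.5 to 2323 against 179.4 to 332.8 CPM (2 of 5 called). The B cell sum was nearly all *Ighm*, at 167.4 to 318.8 CPM in FCGR4+ and 400.2 to 2307 CPM in FCGR4- libraries. The separation of that sum is thus that of 1 gene, and 4 of the 5 tested B cell markers were fitted as lower in FCGR4+. Of mesothelial markers 1 of 6 was called, and of eosinophil, endothelial, and adipocyte markers none of 3, 6, and 7, with *Epx* and *Prg2* of the eosinophil list at 0 in every FCGR4+ library. Adipocyte markers summed to 108.8 to 178.5 CPM in FCGR4+ and 66.9 to 143.2 CPM in FCGR4- libraries and were higher in FCGR4+ in 3 of 4 mice, endothelial markers summed to 14.02 to 23.3 and 17.0 to 29.7 CPM, eosinophil markers to 6.59 to 14.2 and 10.1 to 36.7 CPM, and mesothelial markers to 1.06 to 9.84 and 5.09 to 46.4 CPM. In bulk RNA a gene carried by fewer cells cannot be told apart from one with less RNA per cell, and the part of these other cells in the results that follow was not tested.

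Levels of different members can be compared only per length of transcript, so the order is given in normalized CPM per kilobase of the exon length deposited with the counts. *Prdx1*, which encodes an abundant thiol peroxidase, led both populations at 427.4 ± 101.9 (SD, n = 4) in FCGR4+ and 421.7 ± 75.9 (SD, n = 4) in FCGR4- macrophages. *Gpx4* followed at 134.9 ± 32.4 and 119.6 ± 16.4. In each population the range of *Prdx1* lay above that of *Gpx4*, and the range of *Gpx4* lay above that of the third gene.

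The middle of the order was not the same in both populations. In FCGR4+ macrophages *Nfe2l2* (22.7 ± 4.20), *Gsr* (20.1 ± 6.59), and *Srxn1* (15.9 ± 4.55) came next, with overlapping ranges from each to its neighbor, whereas in FCGR4- macrophages *Gsr* (48.3 ± 27.2) was above *Srxn1* (24.2 ± 5.84) and *Nfe2l2* (22.4 ± 6.84), again with overlapping ranges. *Txnrd1* then stood at 7.74 ± 1.99 and 11.1 ± 4.21. *Gclm* and *Gclc*, whose products form 1 enzyme, lay side by side at 3.61 ± 0.880 and 3.26 ± 0.895 in FCGR4+ and at 5.58 ± 2.32 and 5.42 ± 1.62 in FCGR4- macrophages, and did not differ beyond their spread.

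*Slc7a11* and *Nqo1* had the lowest means per kilobase of the members in both populations. The place of *Slc7a11* depends on its deposited exon length, 13922 bases against 3766 for *Gclc*, which need not be that of the transcript expressed. Before division by length its FCGR4- mean was 65.2 CPM, and that of *Gclc* was 20.4 CPM. In FCGR4+ macrophages *Slc7a11* was at 0.662 ± 0.470 CPM per kilobase, below *Gclc* in 4 of 4 libraries with no overlap. In FCGR4- macrophages it was at 4.68 ± 5.10, and there its range overlapped that of *Gclc*. *Nqo1* stood at 0.339 ± 0.247 and 1.69 ± 1.54.

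**Figure D1:**
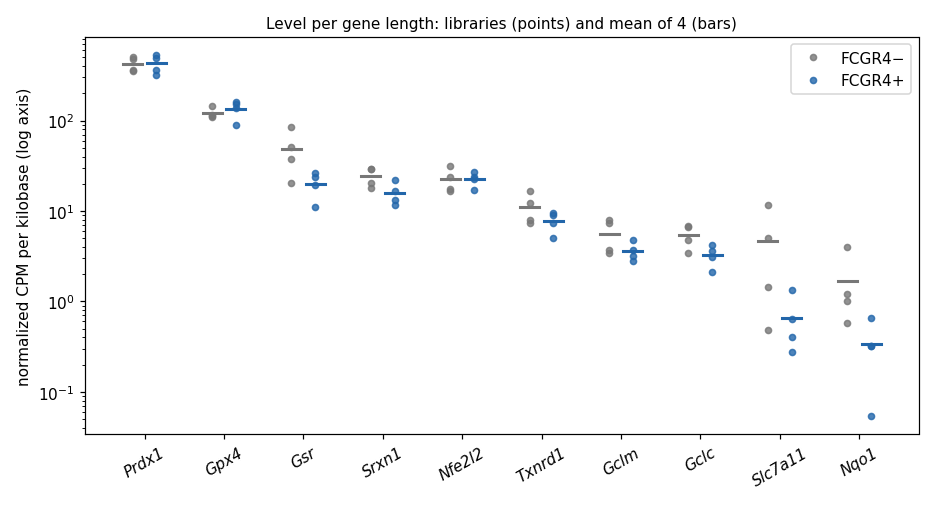
Level of each gene in normalized CPM per kilobase on a log axis, with genes ordered by their mean in FCGR4- macrophages; points are the 4 libraries of a population and bars their mean. *Prdx1* and *Gpx4* stand above the rest in both populations, and the means of *Slc7a11* and *Nqo1* are the lowest, with points that spread widely.

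FCGR4+ and FCGR4- macrophages of the same animal were then compared for each member. *Slc7a11* fell in FCGR4+ macrophages and was the only member that passed the threshold, an adjusted P value under 0.1 in the paired quasi-likelihood fit of edgeR, adjusted by Benjamini-Hochberg over the 17095 genes tested. Across all genes 1.27% passed, 1.19% as lower in FCGR4+ macrophages and 0.0819% as higher, so 1 of 10 is a single gene and not a result about the set. With an unadjusted P value under 0.05, 6 members were lower (*Slc7a11*, *Nqo1*, *Gclc*, *Gclm*, *Srxn1*, and *Gsr*) and none higher, against 6.67% and 3.1% of all genes. The median log2 fold change, FCGR4+ minus FCGR4-, was -0.59 over the members and -0.00 over all genes tested. *Nfe2l2*, *Prdx1*, and *Gpx4* had log2 fold changes between 0.00 and 0.15.

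DESeq2 with the same paired design called 6 of the 10 members lower and none higher (adjusted P value under 0.1), against 4.87% of all genes lower, 1.12% higher, and 5.99% in either direction. These were the 6 members just named. For *Nqo1*, *Gclc*, *Gclm*, *Srxn1*, and *Gsr* the call therefore depended on the test.

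**Figure D2:**
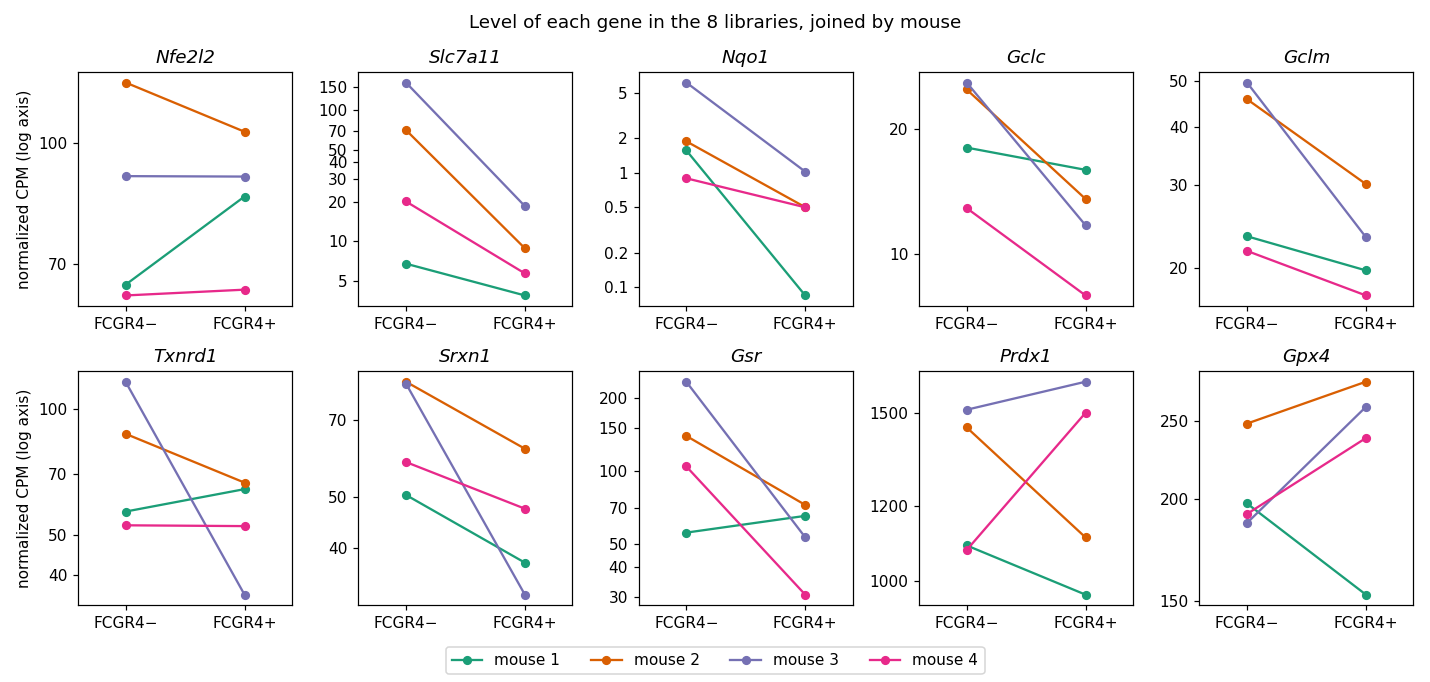
Normalized CPM of the 10 genes in FCGR4- and FCGR4+ macrophages, on log axes that differ between panels, with the 2 libraries of a mouse joined by a line. The lines of *Slc7a11*, *Nqo1*, *Gclc*, *Gclm*, and *Srxn1* fall from FCGR4- to FCGR4+ in 4 of 4 mice, and those of *Nfe2l2*, *Prdx1*, and *Gpx4* go both ways.

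*Slc7a11* lies on the minus strand of chromosome 3 (mm10, 49892526 to 50443614) and encodes the light chain of system xc-, which exchanges glutamate for extracellular cystine. Its level in FCGR4+ macrophages was 3.84, 8.82, 18.5, and 5.67 CPM in mice 1 to 4. In FCGR4- macrophages of the same mice it was 6.73, 70.8, 163.2, and 20.1 CPM. Every mouse was lower in its FCGR4+ library, yet the groups overlap, since FCGR4- macrophages of mouse 1 held less *Slc7a11* than FCGR4+ macrophages of mice 2 and 3.

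The fitted log2 fold change of *Slc7a11* was -2.23 (standard error, SE, 0.402; 95% interval -3.17 to -1.28, edgeR adjusted P = 0.0772). This is a 4.68-fold lower level in FCGR4+ macrophages, with an interval of 2.43 to 9.02. Mouse by mouse the level was 1.75, 8.03, 8.81, and 3.55 times lower. The level in FCGR4- macrophages also varied 24.3-fold between mice, and that in FCGR4+ macrophages 4.82-fold, so FCGR4- macrophages of different mice lay further apart than the fitted 4.68-fold between populations.

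The call on *Slc7a11* rested on few animals. Without mouse 2, mouse 3, or mouse 4 the adjusted P values with edgeR were 0.228, 0.135, and 0.189, and without mouse 1 it was 0.0428. In these fits the log2 fold change was -1.91, -1.90, -2.37, and -2.67 in the same order. The log2 fold change was -1.94 in mice 1 and 2 alone (edgeR adjusted P = 0.354) and -2.53 in mice 3 and 4 alone (edgeR adjusted P = 0.127), so it had the same sign within each ID prefix. With no replicate block it was -2.82, with an adjusted P value of 0.471. DESeq2 gave an adjusted P value of 3.6e-08. In the FCGR4- libraries of mice 1 to 4, *Slc7a11* was at 6.73, 70.8, 163.2, and 20.1 CPM. Summed neutrophil markers were at 387.0, 409.4, 2413, and 653.0 CPM, and fibroblast markers at 920.1, 395.9, 1596, and 635.7 CPM. Mast cell markers were at 2147, 1186, 391.5, and 504.1 CPM. Dendritic cell markers and T and NK cell markers were highest in mouse 2, and B cell markers in mouse 4. The part of these cells in the *Slc7a11* values was not tested.

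*Slc3a2*, whose product CD98 is the heavy chain that brings SLC7A11 to the cell surface, showed a log2 fold change of -0.14 (SE 0.139, edgeR adjusted P = 0.730). It was measured at 143.6, 186.1, 233.7, and 215.0 CPM in FCGR4+ and 135.1, 187.2, 304.7, and 258.9 CPM in FCGR4- macrophages. Per length, *Slc7a11* stood at 0.0114 ± 0.00631 (SD, n = 4) of the *Slc3a2* level in FCGR4+ and 0.0660 ± 0.0599 (SD, n = 4) in FCGR4- macrophages, and this ratio was lower in FCGR4+ macrophages in 4 of 4 mice.

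The subunits of glutamate-cysteine ligase, the enzyme of the first and limiting step of glutathione synthesis, were lower in FCGR4+ macrophages of every mouse but did not pass the threshold. *Gclc*, the catalytic subunit (chromosome 9, 77754535 to 77794485, plus strand), was at 15.9, 13.6, 11.7, and 7.95 CPM in FCGR4+ and 18.0, 24.9, 25.8, and 12.9 CPM in FCGR4- macrophages. The fit gave a log2 fold change of -0.72 (SE 0.197, 95% interval -1.19 to -0.26, edgeR adjusted P = 0.242, DESeq2 adjusted P = 0.0263). The FCGR4- library of mouse 4 lies within the FCGR4+ range.

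*Gclm*, the modifier subunit (chromosome 3, 122245557 to 122270732, plus strand), was at 19.8, 30.2, 23.3, and 17.5 CPM in FCGR4+ and 23.4, 45.7, 49.6, and 21.8 CPM in FCGR4- macrophages. For *Gclm* the fitted log2 fold change was -0.56 (SE 0.180, edgeR adjusted P = 0.338, DESeq2 adjusted P = 0.0960). The ratio of *Gclc* to *Gclm* per length was 0.924 ± 0.284 in FCGR4+ and 1.01 ± 0.189 in FCGR4- macrophages (SD, n = 4 each), so the balance of the subunits' mRNA differed by less than its spread. Of the *Gclm* exon sequence, 4.71% overlaps other annotated genes, and strand was not used in the counting.

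*Gsr* (chromosome 8, 33652523 to 33698163, plus strand) encodes the reductase that returns oxidized glutathione to its reduced form. It was measured at 65.1, 72.2, 53.1, and 30.8 CPM in FCGR4+ and 55.5, 139.2, 233.0, and 104.2 CPM in FCGR4- macrophages. Mouse 1 was slightly higher in FCGR4+ macrophages, and the other 3 mice were lower. The log2 fold change was -1.17 (SE 0.376, edgeR adjusted P = 0.342, DESeq2 adjusted P = 0.0116). In mice 3 and 4 alone it was -1.97 with an adjusted P value of 0.0816, and in mice 1 and 2 alone it was -0.36 with an adjusted P value of 0.999.

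*Nqo1* (chromosome 8, 107388225 to 107403206, minus strand), a quinone reductase often used as a readout of NRF2, had the lowest log2 fold change of the members and the lowest level. Its counts were 5, 24, 64, and 24 in FCGR4+ and 102, 64, 341, and 61 in FCGR4- libraries. These correspond to 0.0843, 0.499, 1.02, and 0.498 CPM against 1.57, 1.88, 6.16, and 0.894 CPM. It was lower in FCGR4+ macrophages of every mouse, and mouse 4 of the FCGR4- group was below mouse 3 of the FCGR4+ group.

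The log2 fold change of *Nqo1* was -2.31 (SE 0.591, 95% interval -3.70 to -0.92, edgeR adjusted P = 0.210, DESeq2 adjusted P = 0.00441).

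*Srxn1* and *Txnrd1* keep the thioredoxin system running, the first by repairing overoxidized peroxiredoxins and the second by reducing thioredoxin. *Srxn1* (chromosome 2, 152105516 to 152111376, plus strand) was at 37.5, 61.6, 32.6, and 47.4 CPM in FCGR4+ and 50.4, 82.6, 81.9, and 58.1 CPM in FCGR4- macrophages. The log2 difference was -0.62 (SE 0.197, edgeR adjusted P = 0.342, DESeq2 adjusted P = 0.0791), and it was lower in 4 of 4 mice. Mouse 3 stood apart, with a log2 ratio of -1.33 where the other mice had -0.43 to -0.29.

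*Txnrd1* (chromosome 10, 82833951 to 82897712, plus strand) was at 64.3, 66.7, 35.9, and 52.4 CPM in FCGR4+ and 56.8, 87.4, 116.6, and 52.7 CPM in FCGR4- macrophages. The widest gap was in mouse 3. The log2 fold change was -0.47 (SE 0.306, 95% interval -1.19 to 0.25, edgeR adjusted P = 0.633, DESeq2 adjusted P = 0.527). Its substrate gene *Txn1* had a log2 fold change of 0.23 (edgeR adjusted P = 0.669).

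The 2 peroxidases of the set showed no difference past the threshold. *Prdx1* (chromosome 4, 116685544 to 116700822, plus strand) was at 968.4, 1112, 1620, and 1503 CPM in FCGR4+ and 1091, 1450, 1513, and 1078 CPM in FCGR4- macrophages. It was lower in FCGR4+ macrophages of mice 1 and 2 and higher in those of mice 3 and 4. The log2 fold change was 0.00 (SE 0.169, 95% interval -0.39 to 0.40, adjusted P = 0.994).

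*Gpx4* (chromosome 10, 80047166 to 80056439, plus strand) was at 152.7, 279.3, 260.0, and 238.0 CPM in FCGR4+ and 197.7, 248.0, 187.0, and 191.9 CPM in FCGR4- macrophages. Mouse 1 was lower in FCGR4+ macrophages and the others were higher. The log2 fold change was 0.15 (SE 0.169, 95% interval -0.25 to 0.55, adjusted P = 0.769). Of the *Gpx4* sequence 34.7% also occurs in 2 other annotated genes, one of them the pseudogene *Gpx4-ps2*, and 8.81% of *Prdx1* occurs in other genes, and read pairs with several places were counted at each.

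*Nfe2l2* itself (chromosome 2, 75675513 to 75704641, minus strand) was at 85.4, 103.3, 90.6, and 65.0 CPM in FCGR4+ and 65.9, 119.4, 90.7, and 63.9 CPM in FCGR4- macrophages. The groups overlapped, with 2 mice lower and 2 higher. Its log2 fold change was 0.05 (SE 0.143, 95% interval -0.29 to 0.38, adjusted P = 0.920), and *Keap1* had -0.17 (SE 0.158, edgeR adjusted P = 0.716). These are mRNA values and do not measure NRF2 protein.

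**Figure D3:**
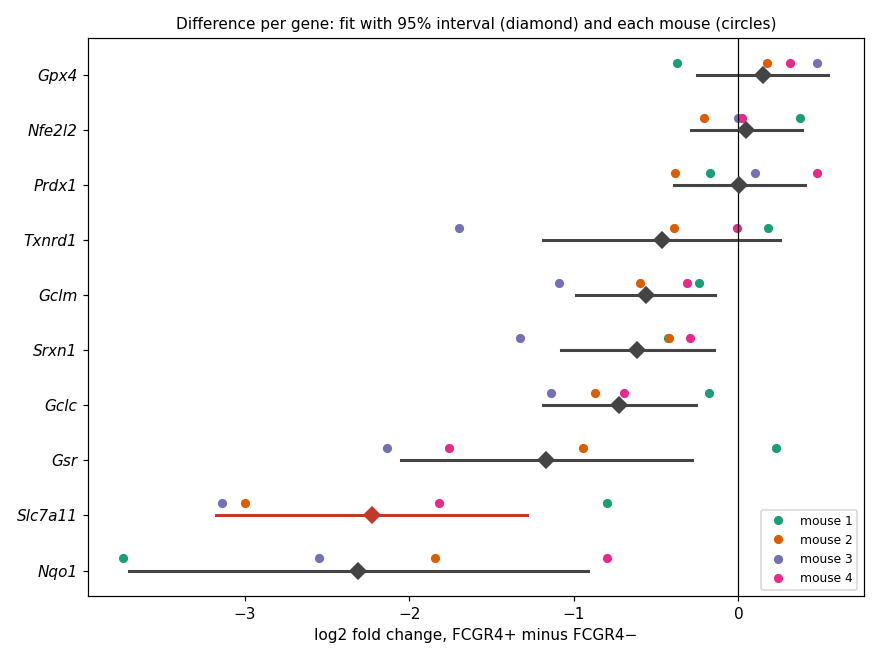
Log2 fold change of each gene, FCGR4+ minus FCGR4-, with the fitted value and its 95% interval as diamonds and bars and the ratio within each mouse as circles; red marks an adjusted P value under 0.1. *Slc7a11* at -2.23 is the only red gene, and the intervals of *Txnrd1*, *Prdx1*, *Nfe2l2*, and *Gpx4* include 0.

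Across the members, the size of the difference depended on the mouse. The median log2 ratio within a mouse was -0.21, -0.51, -1.23, and -0.30 in mice 1 to 4, where the same median over all genes tested lay between -0.05 and 0.03. Mouse 3 had the lowest ratio of the 4 mice for 6 of 10 members, as it had for 32.3% of all genes, and mouse 1 had the highest ratio for 6 members, as for 28.6% of all genes. The FCGR4- library of mouse 3 was the highest of the 8 libraries for 6 members, against 15.6% of all genes. That library also had the highest sums of neutrophil, fibroblast, and mesothelial markers. Of the FCGR4- libraries, mouse 1 had the highest mast cell and eosinophil sums and mouse 4 the highest B cell sum. Dendritic cell sums and T and NK cell sums were highest in mouse 2. The part of these cells in the members' values was not tested.

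No member's groups were free of overlap, a pattern that 3.02% of all genes showed as lower and 0.883% as higher in FCGR4+ macrophages. A lower level in all 4 mice, found for 10.4% of genes, was found for 5 members (*Slc7a11*, *Nqo1*, *Gclc*, *Gclm*, and *Srxn1*). A higher level in all 4 mice, found for 8.35% of genes, was found for none of them.

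The wider redox system was described with 8 lists written by hand, which together hold 114 genes, 111 of them tested. Of these, 3 fell in FCGR4+ macrophages and none rose, where 1.19% of all genes fell and 0.0819% rose. With an unadjusted P value under 0.05, 16 of the 111 were lower and none higher, against 6.67% and 3.1% of all genes. The median log2 fold change of the 111 was -0.09. Among 24 other NRF2 target genes only *Gstm1*, a glutathione transferase, passed, and the median was -0.03. *Hmox1*, the heme oxygenase gene and a target of NRF2, had a log2 fold change of -0.48 (SE 0.177, edgeR adjusted P = 0.432), at 235.6, 479.0, 704.3, and 572.7 CPM in FCGR4+ and 230.9, 843.7, 1213, and 732.2 CPM in FCGR4- macrophages.

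*Gstm1* had a log2 fold change of -0.68 (SE 0.131, edgeR adjusted P = 0.0988), and 18.9% of its sequence occurs in other genes. With RLE size factors in place of TMM its adjusted P value was 0.104, and the call was lost. Of 12 tested genes of cystine and glutathione supply, *Slc7a5* alone passed, at -1.02 (SE 0.195, edgeR adjusted P = 0.0949). It encodes the light chain of the large neutral amino acid transporter, another partner of the CD98 heavy chain. The list's median was -0.14.

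The ATF4 list was the one with the lowest median, -0.36, and 12 of its 14 genes had a negative log2 fold change, as 8595 of all 17095 genes had. With an unadjusted P value under 0.05, 2 of the 14 were lower. *Phgdh*, the first enzyme of serine synthesis, was its 1 called gene, at 1.20, 1.77, 0.798, and 2.43 CPM in FCGR4+ and 8.79, 4.21, 6.25, and 7.22 CPM in FCGR4- macrophages, with no overlap. Its log2 fold change was -2.16 (SE 0.380, edgeR adjusted P = 0.0716), and 47.8% of its sequence occurs in other genes, so part of its counts may belong to copies. *Atf4* itself had a log2 fold change of -0.00 (edgeR adjusted P = 0.998). *Slc7a5*, *Gstm1*, and *Phgdh* did not pass in any of the fits that left out 1 mouse, with log2 fold changes of -1.10 to -0.95, -0.71 to -0.64, and -2.44 to -1.90.

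Regulators and partners of NRF2 (12 genes, median -0.08), other genes of thioredoxins, peroxiredoxins, glutaredoxins, and methionine sulfoxide reductases (15, median 0.08), other glutathione peroxidases and superoxide dismutases (12, median -0.26), lipid peroxidation and ferroptosis genes (12, median -0.08), and genes of selenocysteine incorporation with some selenoproteins and a selenoprotein receptor (10, median 0.07) held no gene past the threshold with edgeR.

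**Figure D4:**
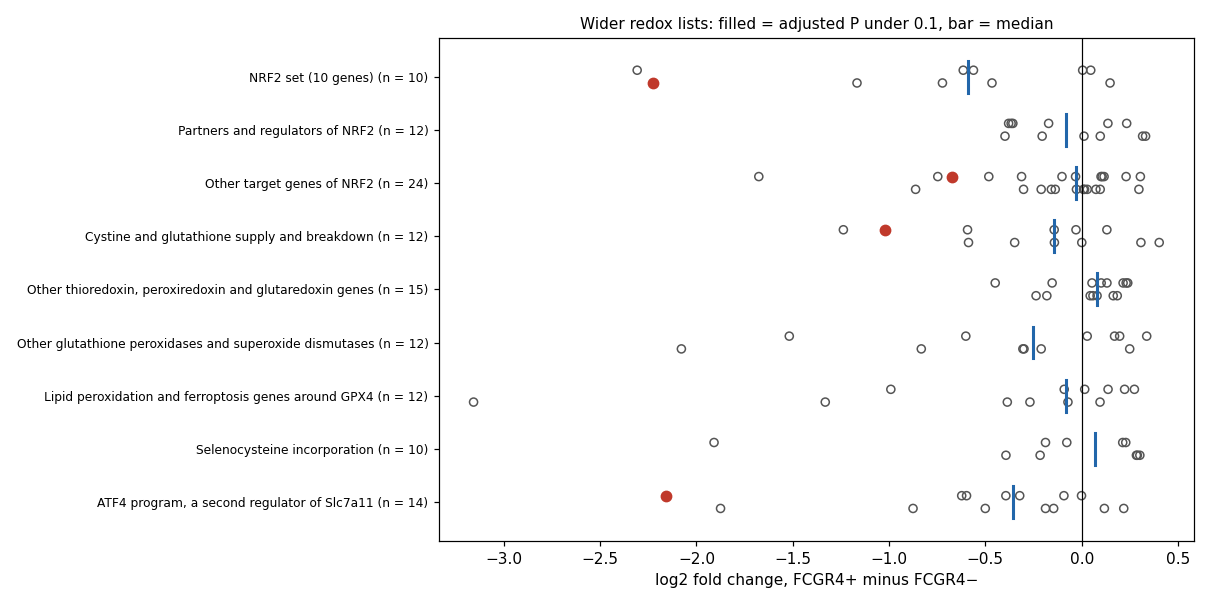
Log2 fold change, FCGR4+ minus FCGR4-, of every tested gene in the set and in the 8 wider lists, with a blue bar at each median and filled red circles for an adjusted P value under 0.1. Only *Slc7a11*, *Gstm1*, *Slc7a5*, and *Phgdh* are filled, and they lie to the left of 0.

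The genes most like *Slc7a11* over the 8 libraries were ranked by the root mean square distance between centered log2 CPM values, out of 17094 genes. *Inhba*, which encodes an activin subunit, was nearest at 0.388. The cytokine gene *Il1a* was at 0.590, the growth factor receptor gene *Met* at 0.614, and *Clec4n*, which encodes the C-type lectin dectin-2, at 0.642. All are on the log2 scale. Among the members, *Nqo1* ranked 41, *Gsr* 133, and *Gclm* 507, and the others lay between 1030 (*Gclc*) and 5744 (*Gpx4*).

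These 4 genes were chosen for their nearness to *Slc7a11* in these same 8 libraries. A shared peak, spread over mice, and direction between populations therefore follow from that choice. Their highest library was FCGR4- of mouse 3, and in FCGR4- macrophages they ranged 42.5-fold (*Inhba*), 19.2-fold (*Il1a*), 25.6-fold (*Met*), and 28.9-fold (*Clec4n*) between mice. None passed the threshold between populations with edgeR, with adjusted P values of 0.385, 0.483, 0.171, and 0.432 in that order. DESeq2 called *Inhba*, *Met*, and *Clec4n* lower in FCGR4+ macrophages, with adjusted P values of 0.0194, 5.1e-04, and 0.0253. *Il1a* shares 11.2% of its exons with an overlapping gene. The likeness is over 8 libraries from 4 mice, which share mouse and sort, and it was not tested.

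**Figure D5:**
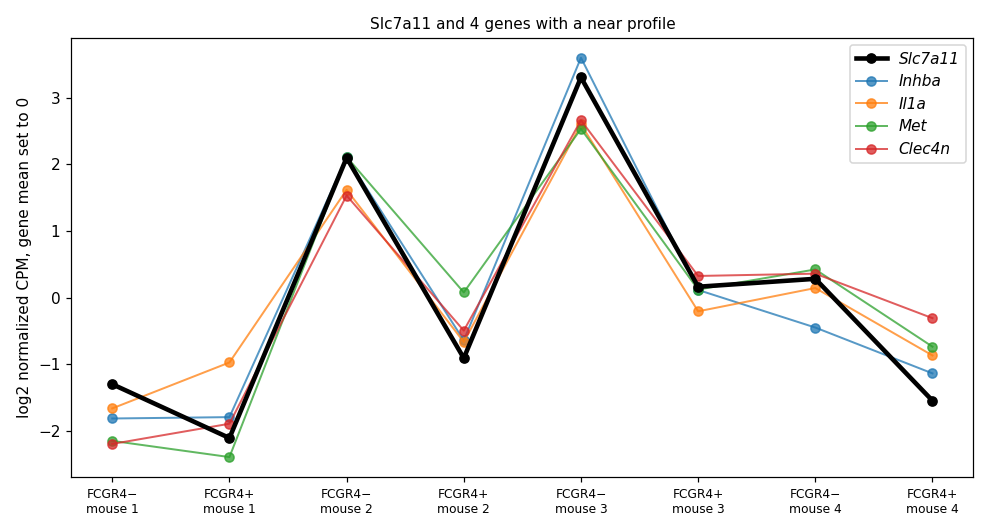
Log2 normalized CPM of *Slc7a11* (black) and 4 of its 5 nearest genes in the 8 libraries, with each gene's mean set to 0 and libraries ordered by mouse. The genes were picked for this likeness. Their lines run together, highest in FCGR4- macrophages of mouse 3 and second highest in those of mouse 2, and below their means in both libraries of mouse 1.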

How the data were processed

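Reads were mapped by the authors to mm10 with STAR and counted per gene with featureCounts 1.6.3 on GENCODE release 18 for mouse. The deposited values are these raw counts. Read pairs were counted without strand, and pairs with several alignments were counted at each. All 8 libraries were used, mapped to population and mouse by their labels.

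Here the 17095 genes that reached 10 counts in 4 or more libraries were normalized by TMM and tested with edgeR 4.0.16 (quasi-likelihood, mouse as a block, R 4.3.3). Standard errors (SE) were derived from the log2 fold change and the F statistic. Per-mouse ratios use a prior count of 2, and all tests are two-sided. Same-mouse libraries deviated together (correlations of 0.291 to 0.428 across genes), and the pairing comes from the mouse number in the labels. No 2 libraries of a population were duplicates (chi-square per degree of freedom at least 82.9). Fits were tested on simulated data. Shared sequence was computed with 50-base words on a later GENCODE release.

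The members, lists, and tests were chosen with earlier results of these data known. Named genes are the members, called list genes, *Fcgr4*, *Slc3a2*, *Keap1*, *Hmox1*, *Txn1*, and the 5 genes nearest to *Slc7a11*, 1 of which is not reported here; *Atf4*, *Mcpt8*, *Epx*, and *Prg2* were added after their values were seen. Alternatives were DESeq2 1.42.0, no replicate block, other normalizations, filters, and thresholds, edgeR's newer quasi-likelihood method, each mouse left out, and each ID prefix alone.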

Additional observations from a re-analysis of the deposited data

Results flagged for a closer look

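Among 69 groups of 4 values, of which about 3.45 would hold an extreme value by chance, 1 did. It was the log2 ratio of *Srxn1* in mouse 3, at -1.33 against -0.43 to -0.29 in the other mice, and its gap to the nearest mouse took 0.872 of the whole range. Untested differences between mice of the 2 ID prefixes were found for *Prdx1* and *Keap1*, since every mouse of one prefix moved one way and every mouse of the other the opposite way. The mean log2 ratio of *Prdx1* was -0.28 in mice 1 and 2 and 0.29 in mice 3 and 4, a difference of -0.566. That of *Keap1* was 0.08 in mice 1 and 2 and -0.42 in mice 3 and 4, a difference of 0.498. Neither difference was tested, and how often such a pattern arises among all genes or by chance was not computed.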

How the results depend on the processing

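The number of calls depended on the test and the filter more than the fold changes did. Genes, members, and list genes past the threshold numbered 217, 1, and 3 as reported. They numbered 1024 (192 higher and 832 lower, 81.2% lower against 93.5%), 6, and 13 with DESeq2, 1054 (84.9% lower), 5, and 12 with no filter on low counts, 629, 2, and 11 with edgeR's newer method, 76, 0, and 0 at a threshold of 0.05, and 115, 0, and 2 in mice 1 and 2 alone. Mice 3 and 4 alone gave 72, 1, and 0, the member being *Gsr*. Requiring at least 10 counts in every library gave 6 list genes, and *Nqo1* was then not tested. With no replicate block, so without the pairing, 48, 0, and 0 passed. Leaving out 1 mouse gave 78 to 162 genes, 0 to 1 members, and 0 to 1 list genes. The causes were not tested beyond what each setting removes.

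Signs turned in the fits run only for genes with reported log2 fold changes between -0.17 and 0.23. *Nfe2l2* was -0.0426 with library size alone, -0.00910 in mice 3 and 4 alone, and -0.0620 to 0.16 with 1 mouse left out. *Prdx1* was -0.0843 with library size alone, -0.0118 with at least 10 counts in every library, -0.28 in mice 1 and 2 alone, and -0.15 to 0.17 with 1 mouse left out. In mice 1 and 2 alone *Gpx4* was -0.10, *Slc3a2* 0.0383, *Keap1* 0.0758, and *Txn1* -0.0815. Over the 10 members and these settings, 112 of 139 values kept direction and side of the threshold, 11 newly passed, 7 no longer passed, and 9 changed sign. The median of all genes was -0.00 as reported, -0.09 with library size alone, -0.16 with no filter on low counts, and -0.08 in mice 3 and 4 alone.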

Other observations

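Some genes of the wider lists, chosen here after their values were seen, were lower in FCGR4+ macrophages of 4 of 4 mice without passing the threshold by edgeR, and passed with DESeq2. *Osgin1*, an oxidative stress gene and NRF2 target, was at 5.95, 9.73, 10.3, and 10.5 CPM in FCGR4+ and 10.3, 19.98, 86.4, and 37.4 CPM in FCGR4- macrophages, a log2 fold change of -1.68 (edgeR adjusted P = 0.153, DESeq2 adjusted P = 1.0e-04). *Abcc1*, a transporter that exports glutathione conjugates, had a log2 fold change of -0.75 (edgeR adjusted P = 0.198, DESeq2 adjusted P = 0.00839). *Slc40a1*, the iron exporter ferroportin, was at 7.05, 14.1, 10.9, and 9.42 CPM in FCGR4+ and 13.3, 21.5, 48.0, and 29.5 CPM in FCGR4- macrophages, with a log2 fold change of -1.33 (edgeR adjusted P = 0.116). *Sod3*, the extracellular superoxide dismutase, and *Gpx8* had log2 fold changes of -1.52 and -2.08 and were highest in the FCGR4- library of mouse 3, which also held the most fibroblast marker RNA (1596 CPM). The part of that RNA in these values was not tested.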
